A study of Mus musculus with 2 samples.

Results

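The potassium channel subunits of the mouse, 94 genes, were examined in MIN6 cells with and without a lentiviral FTO vector. Members were the genes whose symbol has the form of a potassium channel gene (Kcn, a family letter or letters and a number), together with Abcc8, the sulfonylurea receptor that forms the beta cell KATP channel with Kcnj11. They were read by 128 of the 39417 probes on the array, and each of the 94 such genes in the mouse annotation had at least 1 probe. The named probes on the array cover 20649 genes in all.

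MIN6 is an insulinoma line from a transgenic C57Bl/6 mouse that secretes insulin in response to glucose, and the cells were labelled as passages 15 to 20. The group called FTO had received a lentivirus made from pLVX-IRES-ZsGreen-mFTO (its treatment label reads "FTP overexpression"), and the group called control had received the empty pLVX-IRES-ZsGreen virus, so that both carried the vector and the green fluorescent protein. Green fluorescence was checked 48 h after transduction, and total RNA was labelled with a single dye and hybridized to 1 Agilent array per condition. With 1 array per condition there was no replicate check, no p-value was computed, and every difference below compares these arrays and not the conditions.

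Potassium channels set the resting potential of a beta cell and end each action potential. When glucose metabolism raises ATP, the KATP channel closes, the membrane depolarizes, calcium channels open and insulin granules are released. Voltage-gated and calcium-activated potassium channels then repolarize the membrane, and leak channels of the K2P family (tandem pore domain channels) pass a background current that opposes depolarization.

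The values below are spot signals, which are intensities in arbitrary units after background subtraction. The median spot signal was 292 on the FTO array and 237 on the control array, so the signals before normalization were brighter on the FTO array for most genes, and the log2 differences (FTO minus control) were taken after quantile normalization. Of all probes, 82.0% on the FTO array and 84.9% on the control array were well above background. Each log2 difference is given with the spot error, which is the combined error estimate of both spots from the scanner software and does not include the variation between cultures. For the 58 tested member probes printed as a single spot with a control signal of 100 or more, the spot error was 0.20 to 0.21, and it is printed below only where it lay outside that range. Fto itself gave 7301 (FTO) and 5179 (control), and its normalized values were 0.06 ± 0.20 (spot error) apart, so this signal gave no check of the labels, which set the direction of every difference. All 12 beta cell markers examined, Ins1, Ins2 and Pdx1 among them, were well above background on both arrays with Ins1 at the 99.7th and Pdx1 at the 88.9th percentile of the control array. Defining genes of other islet cells were bright as well, with Gcg and Ttr at the 99.9th percentile and Ppy at the 85.8th, and Gcg differed by 0.01 ± 0.07 (spot error). In this bulk RNA, fewer cells of a type and less RNA per cell cannot be told apart.

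Most of the subunit genes gave a signal in MIN6 cells. Both arrays had a probe well above background for 76 genes and only 1 array for 4 genes, and 14 genes had no probe well above background. The 80 detected genes were 85.1% of the members, against 89.6% of all named genes, and the 76 detected on both arrays stood against a share of 85.9% of all named genes. The spots of the members were dimmer than those of the array as a whole. The brightest probe of each detected member lay at a median percentile of 49.8 on the control array, against 65.5 for all detected named genes, and its median signal was 210 (control) and 231 (FTO), against 1344 and 1775. A signal depends on the affinity of the probe as well as on the amount of RNA, so the percentile describes the spot, and the signals of different genes are not compared as amounts of RNA.

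The 14 genes without a probe above background came from several families. Among them were the Shaker-type Kcna1 and Kcna2, the inward rectifiers Kcnj2, Kcnj5, Kcnj9 and Kcnj16, the KATP pore gene Kcnj8 of smooth muscle, the K2P genes Kcnk2, Kcnk5 and Kcnk18 and the silent subunits Kcns1, Kcns2 and Kcnv1. By role, the detected share was lowest for the KATP genes (2 of 3), the other inward rectifiers (9 of 13) and the silent voltage-gated subunits (7 of 10). All 8 calcium- and sodium-activated genes and all 16 auxiliary genes had a probe above background on at least 1 array. Among the 24 probes that stayed at background on both arrays, no signal exceeded 13.7 on either array.

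**Figure D1:**
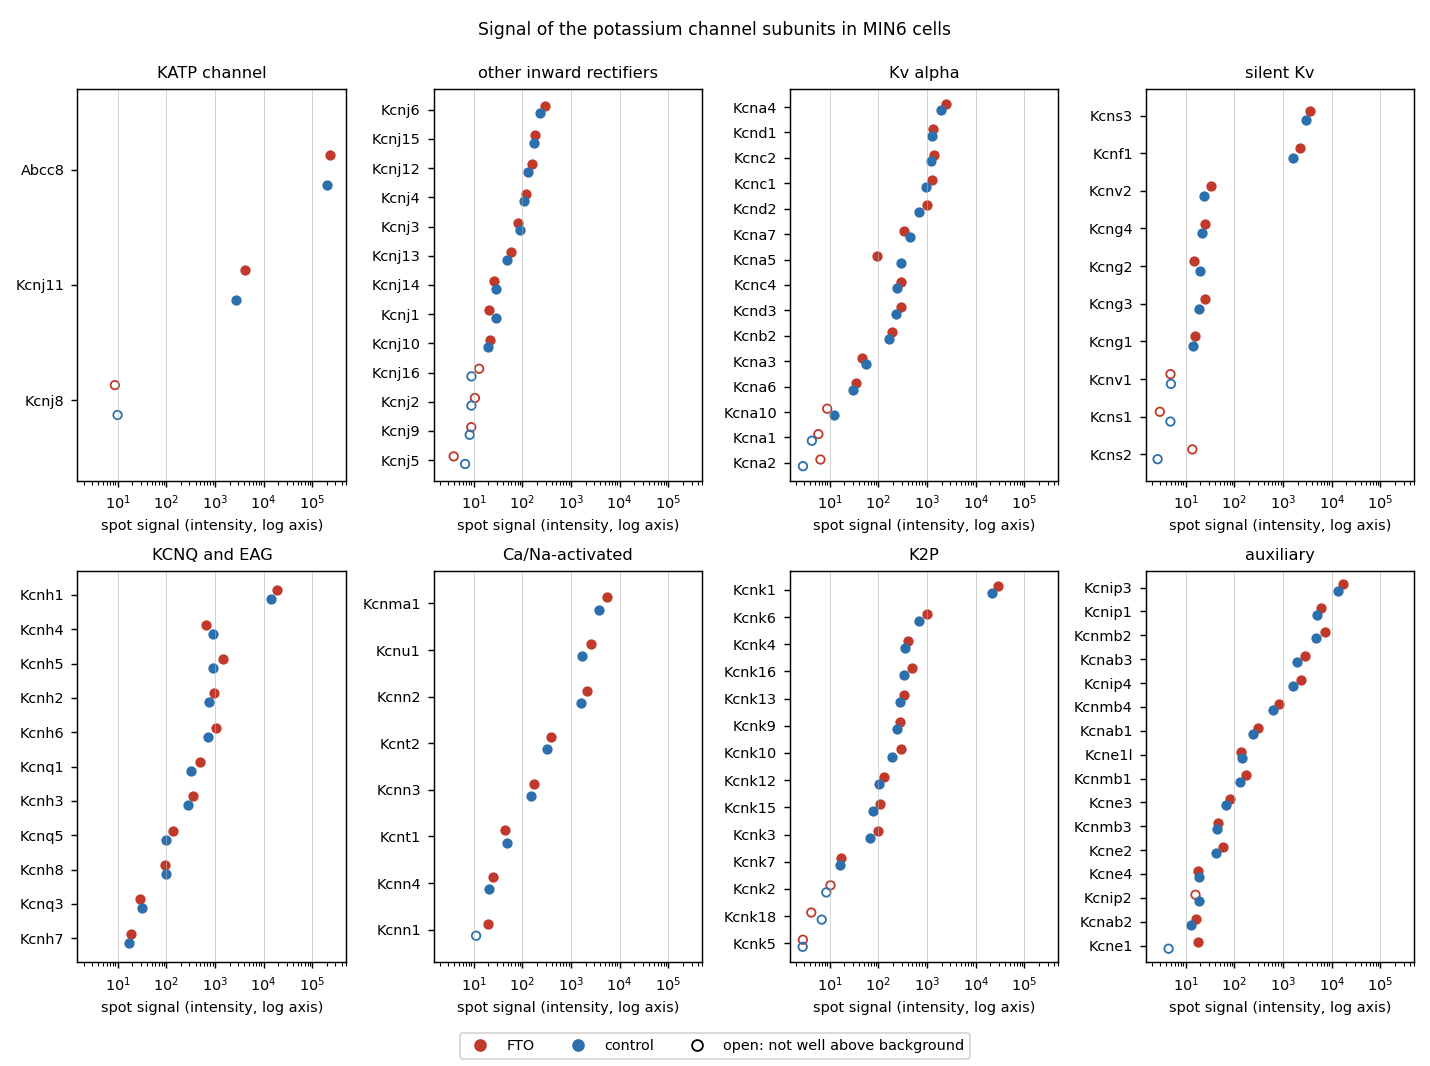
Spot signal (intensity, log axis) of the probe with the highest control signal for the potassium channel subunit genes reported here, in 8 role groups, on the FTO array (red) and the control array (blue), with open points for spots not well above background. Abcc8 (235771 and 201513) is the brightest, Kcna5 is the gene whose points lie farthest apart among those detected on both, and the genes with open points only were not above background.

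The KATP channel of the beta cell was read by 4 probes, all well above background on both arrays. Abcc8 (NM_011510), the regulatory sulfonylurea receptor, had signals of 235771 (FTO) and 201513 (control) with its first probe, at the 99.7th and 99.6th percentiles. Its second probe gave 205190 (FTO) and 189872 (control). Both probes were among the brightest on each array, and they differed little between the arrays, with log2 differences of 0.12 and -0.02. Kcnj11 (NM_010602), the pore subunit that conducts the current, had signals of 4076 (FTO) and 2772 (control) with its brighter probe, at the 72.9th and 72.0th percentiles. The dimmer probe of Kcnj11 gave 417 (FTO) and 340 (control). The log2 differences of Kcnj11 were 0.14 and -0.03, so each of the 4 probes of the pair lay within the spot error. With each array scaled to its 75th percentile in place of quantile normalization, the first Abcc8 probe differed by -0.20 and Kcnj11 by 0.13, so the sign of the Abcc8 value depends on the scaling. The second Abcc8 probe differed by -0.31 under that scaling and by -0.21 under cyclic loess, which is beyond its spot error. The genes lie next to each other on chromosome 7. The alternative members of the KATP family were dim: Kcnj8 had signals of 8.79 (FTO) and 9.99 (control), not above background, and Abcc9, the receptor it pairs with in muscle and vessels, gave 150 (FTO) and 117 (control) with a log2 difference of 0.16.

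Of the other 13 inward rectifiers, which pass current more easily into the cell than out of it, 9 were detected on both arrays and none differed by 2-fold. Kcnj6, a pore subunit of the channels opened by G proteins, was printed as 10 spots on each array and gave mean signals of 287 (FTO) and 227 (control). The SD of those spots on the log2 scale was 0.06 (FTO) and 0.03 (control), and the means differed by 0.05 ± 0.02 (SE over spots, which are technical). Kcnj15, which lies next to Kcnj6 on chromosome 16, had signals of 181 (FTO) and 178 (control) and a log2 difference of -0.22. Kcnj12, a strong rectifier of muscle, had signals of 156 (FTO) and 128 (control) and a log2 difference of 0.07. Kcnj5, the G protein-coupled subunit of the heart, was at 3.89 (FTO) and 6.68 (control), not above background on either array. Over the brightest probes of the 9 detected genes, the differences ran from -0.52 to 0.16 with a median of -0.09, and 4 of them lay above 0.

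The pore subunits of the classical voltage-gated channels (Kcna to Kcnd) numbered 17, of which 14 were detected on both arrays. Kcnb2, a delayed rectifier, gave 194 (FTO) and 163 (control) and a log2 difference of 0.01, which is less than the spot error. Among the subunits of rapidly inactivating currents, Kcna4 had signals of 2501 (FTO) and 1968 (control) and a difference of -0.05. Kcnd1 had signals of 1329 (FTO) and 1292 (control) and a difference of -0.34. Kcnd2 had signals of 1009 (FTO) and 682 (control) and a difference of 0.19. Of these, Kcnd1 lay beyond its spot error but within 2 times it. Kcnc4, another rapidly inactivating subunit, gave 290 (FTO) and 241 (control) and a difference of -0.03.

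Kcna5 (NM_145983), a delayed rectifier subunit best known from the atrium, had the largest difference of any subunit detected on both arrays. Its first probe gave 93.8 (FTO) and 288 (control), which is a log2 difference of -1.87 ± 0.21 (spot error) or a signal 3.64-fold lower on the FTO array. Its second probe, with the same accession, gave 3.06 (FTO) and 2.37 (control) and was not above background on either array, so only the first probe carries the difference. The first probe lies at row 365 and column 9 of the array, in a block where 35.0% of the spots of repeated probes had lost signal on the FTO array. In that block, 148 probes had a control signal within 2-fold of that of Kcna5, and 11 of them (7.43%) differed by less than -1, with Kcna5 the lowest. Elsewhere on the array, 76 of 4699 such probes (1.62%) differed by less than -1, and 9 lay at or below Kcna5. The probes counted elsewhere include those in the other blocks of lost signal on the FTO array. The part of the lost signal in the Kcna5 value was not tested. The other genes of the same chromosomal cluster were dim: Kcna1 was not above background, and Kcna6 gave 34.7 (FTO) and 30.7 (control) with a difference of 0.10 ± 0.26 (spot error).

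The 10 silent subunits (Kcnf, Kcng, Kcns and Kcnv), which form no channel alone and modify the delayed rectifiers of the Kcnb family, included 7 detected genes. Kcns3 had signals of 3654 (FTO) and 2959 (control) and a log2 difference of -0.11. Kcnf1 had signals of 2254 (FTO) and 1638 (control) and a difference of 0.07. These were the silent subunits with bright spots, and both differed by less than the spot error. Kcnv2, with 32.4 (FTO) and 23.9 (control), differed by 0.37 ± 0.31 (spot error). Kcng3, with 24.7 (FTO) and 18.4 (control), differed by 0.38 ± 0.34 (spot error). The other detected silent subunits, Kcng1, Kcng2 and Kcng4, had signals under 25 on both arrays, so the group had a median percentile of 22.2, the lowest of the 8 roles.

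The KCNQ and EAG families numbered 13 genes, of which 12 were detected on both arrays. Kcnh1, the mammalian ether-a-go-go channel, had signals of 19117 (FTO) and 14057 (control), at the 88.0th percentile of the control array, and a log2 difference of -0.00. Kcnh5, its nearest relative, gave 1433 (FTO) and 898 (control) and a difference of 0.29. Kcnh6 and Kcnh2, of the erg group, gave 1068 and 978 (FTO) and 705 and 746 (control), with differences of 0.22 and 0.00. Kcnq1, whose human counterpart lies in a type 2 diabetes risk locus, had signals of 504 (FTO) and 327 (control) and a difference of 0.29. A second Kcnh6 probe gave 419 (FTO) and 340 (control) and a difference of -0.02. The printed probes of Kcnh5 and Kcnq1 and the brighter Kcnh6 probe lay between 1 and 2 spot errors above 0, and those of Kcnq1 and Kcnh6 lie in blocks of lost signal on the FTO array. The exception in the family was Kcnh4, whose brighter probe gave 656 (FTO) and 901 (control) and a difference of -0.82, well beyond 2 times its spot error. That probe is in the same block of lost signal as Kcna5, and the second Kcnh4 probe was not above background on either array.

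Channels opened by calcium or sodium inside the cell numbered 8 genes. Kcnma1, the large-conductance (BK) channel that also needs depolarization to open, was read by 3 probes for different transcripts, with signals of 5552, 1527 and 1183 on the FTO array and 3730, 1210 and 1038 on the control array. Their log2 differences were 0.15, -0.05 and -0.19, so the 3 probes did not share a direction. The probe with -0.19 lies in a block of lost signal on the FTO array. Kcnn2, of the small-conductance (SK) channels that follow bursts of calcium entry, was printed as 10 spots and gave 2136 (FTO) and 1643 (control), with an SD over spots of 0.08 on each array and a difference of -0.02 ± 0.04 (SE over spots). Kcnn3 had signals of 176 (FTO) and 152 (control) and a difference of -0.02. Neither gene differed by more than its measuring error. Kcnn1 was well above background on the FTO array only, with 20.1 against 11.2 on the control array, a ratio of 1.77 after quantile normalization. The spot error of Kcnn1 was 0.45, and its log2 difference of 0.82 came to 0.41 with 75th percentile scaling and to 0.13 with normexp background correction. Kcnn4, the intermediate-conductance channel, gave 24.5 (FTO) and 20.4 (control) and a difference of 0.21 ± 0.33 (spot error). Kcnu1, a relative of Kcnma1 known from sperm, had signals of 2563 (FTO) and 1652 (control) and a difference of 0.24, just over its spot error.

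The K2P family of leak channels had 14 genes, 11 of them detected on both arrays, and none differed by 2-fold. Kcnk1 had signals of 28927 (FTO) and 22045 (control), at the 91.5th percentile of the control array, and a log2 difference of -0.05. Kcnk16, the leak channel named after its alkaline activation and known for its expression in islets, had signals of 502 (FTO) and 332 (control) and a difference of 0.26. Kcnk6 gave 999 (FTO) and 693 (control) and a difference of 0.15. Kcnk3, an acid-sensitive leak channel, had signals of 100.0 (FTO) and 66.4 (control) and a difference of 0.42 ± 0.22 (spot error), the highest among the brightest probes of this family. The Kcnk3 difference was 0.42 with cyclic loess, 0.16 with 75th percentile scaling and 0.21 with normexp background correction. Its probe lies in a block of lost signal on the control array, and the part of the block in the value was not tested. Kcnk4, opened by stretch and lipids, gave 399 (FTO) and 354 (control) and a difference of -0.15 with its brighter probe. Its relative Kcnk2 was at 10.4 (FTO) and 8.54 (control), not above background. The differences of the 11 brightest probes ran from -0.15 to 0.42, with a median of 0.15 and 7 above 0, and none exceeded 2 times its spot error.

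The 16 auxiliary genes encode subunits that bind to the pore proteins and change their gating or traffic. The Kcnip genes encode calcium-binding partners of the Kcnd channels. Kcnip3, which is also known as a transcriptional repressor, had signals of 17210 (FTO) and 13324 (control), at the 87.6th percentile of the control array, and a log2 difference of -0.08. Kcnip1 was printed repeatedly, on 9 spots of the FTO array and 10 of the control array after outliers were left out, with mean signals of 6162 (FTO) and 4941 (control), an SD over spots of 0.05 and 0.06 and a difference of -0.09 ± 0.03 (SE over spots). A second Kcnip1 probe, for another transcript, gave 4350 (FTO) and 2944 (control) and a difference of 0.14, so the sign was not shared. Kcnmb2, a beta subunit that makes the BK channel inactivate, gave 7254 (FTO) and 4646 (control) with a difference of 0.22, and its dimmer probe gave 548 (FTO) and 348 (control) with a difference of 0.32. Both Kcnmb2 probes thus lay between 1 and 2 spot errors above 0. Kcne2, a small single-pass partner of Kcnq and Kcnh channels, had signals of 59.5 (FTO) and 41.3 (control) and a difference of 0.40 ± 0.23 (spot error). The Kcne2 difference was 0.38 with cyclic loess, 0.10 with 75th percentile scaling and 0.21 with normexp background correction. Its probe lies in a block of lost signal on the FTO array.

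Kcne1 (NM_008424), the partner with which Kcnq1 makes the slow cardiac current, was the only other member past 2-fold. Its signal was 18.1 on the FTO array, above background, and 4.45 on the control array, not above background. The normalized log2 difference was 2.09 ± 0.76 (spot error), but against the lowest control signal of a probe above background in all its spots, it was at least 1.69-fold higher on the FTO array, so the bound lies under 2-fold. The Kcne1 probe lies in a block where repeated probes lost signal on the FTO array, while its own signal was higher on that array. The part of the block in the Kcne1 value was not tested. Kcnip2 was well above background on the control array only, with 15.9 (FTO) and 18.5 (control). Its log2 difference of -0.23 ± 0.43 (spot error) was smaller than its spot error, so no lowest fold is given. Kcna10 was likewise above background on the control array only, with 8.89 (FTO) and 12.1 (control), which allows no fold.

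With a gene counted where any probe detected on at least 1 array differed by more than 2-fold, 2 of the 80 detected subunit genes (2.5%) were called, against 3.21% of all 18509 named genes detected. Kcna5 was the 1 gene lower on the FTO array, against 1.9% of all named genes, and Kcne1 the 1 gene higher, against 1.31%. Among genes with probes detected on both arrays, the count was 1 of 76 (Kcna5), against 1.45% of all. At 1.5-fold the count was 8 of 80 (10.0%), against 8.63% of all, with 3 lower, which were Kcna5, Kcna7 and Kcnh4, and 5 higher, among them Kcne1, Kcnk4, Kcnn1 and Kcnt2. These shares are near those of the array as a whole. Over the brightest probes of the 80 genes, 45 differences lay above 0 and 35 below, with a median of 0.05, against 0.01 over all named genes, and with 75th percentile scaling these medians were -0.10 and -0.06.

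The differences of the members were small where the spots were bright. Of the 104 tested member probes, 68 differed by at most 0.25 on the log2 scale, 25 by 0.25 to 0.5 and 11 by more than 0.5. Among the 22 probes detected on both arrays with a control signal of 1000 or more, the differences ran from -0.34 to 0.24, with an SD over probes of 0.15 and a median of -0.02. The SD was 0.39 for the 39 probes between 100 and 1000, which include Kcna5, and 0.34 for the 37 probes under 100. The median was 0.04 in the middle class and 0.12 in the dim class, where 24 probes lay above 0 and 13 below. More than 2 times the spot error separated the arrays for 7 of the 104 probes (6.73%), against 8.37% of all named probes tested.

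**Figure D2:**
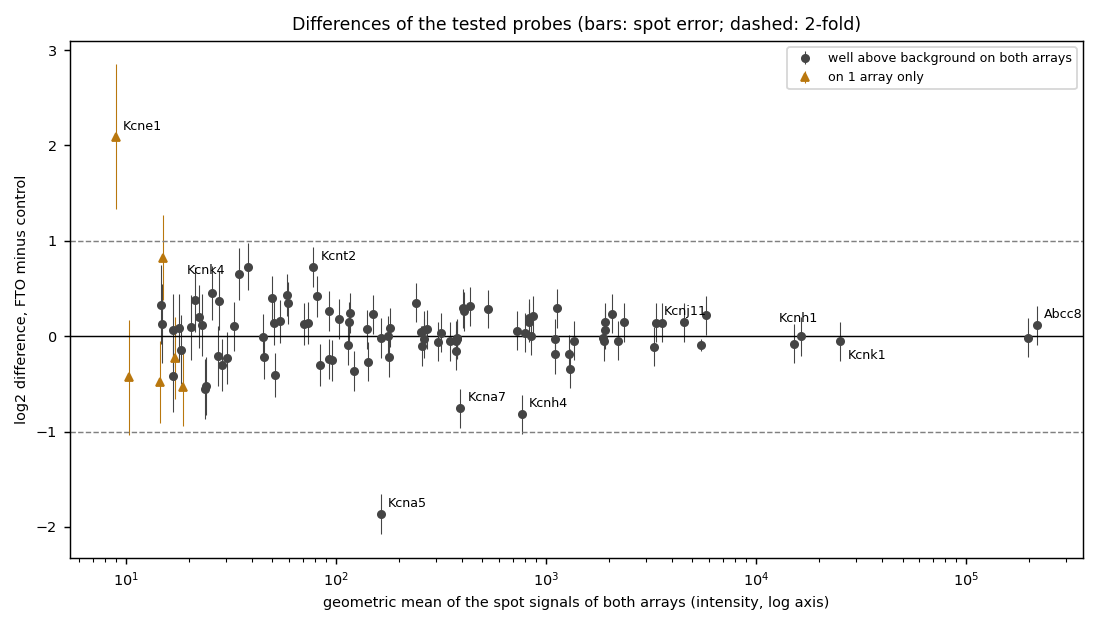
Log2 difference (FTO minus control, after quantile normalization) of each of the 104 tested subunit probes against the geometric mean of its spot signals (intensity, log axis), with bars for the spot error, triangles for probes above background on 1 array only, and dashed lines at 2-fold. Kcna5 (-1.87) and Kcne1 (2.09) lie outside the dashed lines, and the probes at the bright end, Abcc8 among them, lie near 0.

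Several probes of the same gene give a check within each array, since 32 member genes had more than 1 probe. In 22 of them all probes were detected, which gave 24 pairs of the brightest probe with another probe. The differences in a pair were apart by a median of 0.26 on the log2 scale, and in 5 pairs by more than 2 times their combined spot error. In each of these 5 the difference of a probe was not shared by the other probe of its gene. Kcna7, a voltage-gated subunit, had the widest gap, with 338 (FTO) and 457 (control) and a difference of -0.76 for its brighter probe, against 204 (FTO) and 162 (control) and 0.09 for the other. For the sodium-activated Kcnt2, the dimmer probe gave 107 (FTO) and 57.4 (control) and a difference of 0.73, and the brighter probe a difference of -0.05. The dimmer Kcnk4 probe gave 44.8 (FTO) and 26.7 (control) and 0.65 ± 0.28 (spot error), against -0.15 for the brighter. The brighter Kcnk4 probe lies in a block of lost signal on the FTO array, and the dimmer does not. Kcna7, Kcnk4 and Kcnt2 thus passed 1.5-fold with only 1 of 2 detected probes.

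**Figure D3:**
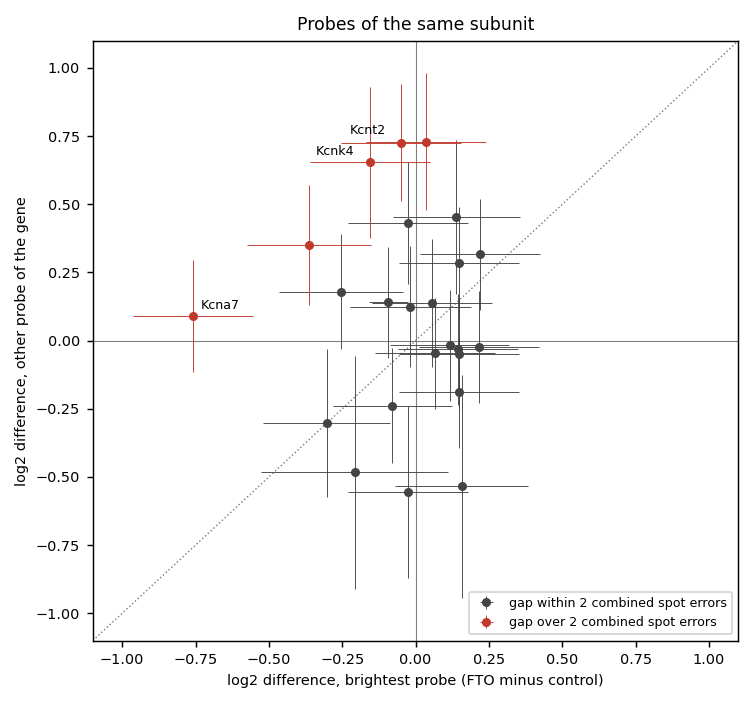
Log2 difference (FTO minus control) of the brightest probe of a subunit gene against that of another detected probe of the same gene, for 24 pairs of 22 genes, with bars for the spot errors and a dotted line of equality. The 5 pairs in red are apart by more than 2 times their combined spot error, and none of them has both probes past 1.5-fold.

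Detection too depended on the probe. In the 10 remaining genes with several probes (Kcna5, Kcna6, Kcnd3, Kcne1l, Kcne4, Kcng1, Kcng2, Kcnh4, Kcnj15 and Kcnq5), a probe was above background and another was not. Kcnd3, a rapidly inactivating subunit, gave 298 (FTO) and 233 (control) with a probe for NM_001039347 and 8.40 (FTO) and 4.05 (control), not above background, with a probe for NM_019931. In Kcnq5, of the KCNQ family, the probe for NM_001160139 gave 137 (FTO) and 100.5 (control) and the probe for NM_023872 gave 2.83 (FTO) and 2.20 (control), the latter not above background. Among the pairs in which both were detected, the control signals differed by a median ratio of 3.34 and at most 141, for Kcnip3. Probes of the same gene therefore gave very different signals on the same array, for transcripts of the same gene or for the same accession.

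The position of each probe on the array was set beside its difference, and a link between them was not tested. The surface was divided into 35 blocks, and the spots of 79 probes of low to middle signal that are printed repeatedly were set against the median of their probe. In 6 adjoining blocks of the FTO array (rows 229 to 456, columns 1 to 34), 29.0% of these spots were lower by more than 0.5 on the log2 scale, against 1.86% in the other blocks. The blocks were chosen by this share of the same spots, so the gap between those shares follows from the choice. On the control array, which did not enter the choice of these 6 blocks, 0.690% were lower in the same area. These blocks held 24 of the 128 member probes (18.8%), against 17.2% of all probes. Both members past 2-fold lie there, Kcna5 with a lower and Kcne1 with a higher signal on the FTO array. The brighter Kcnh4 probe (lower on the FTO array), the first Abcc8 probe and both Kcnj11 probes lie there too. The same holds for the probes of Kcnd2, Kcne2, Kcnk1, Kcnk16 and Kcnq1. Also in these blocks are the brighter probes of Kcnh6, Kcnj15, Kcnk4 and Kcnn3, and the dimmest Kcnma1 probe. Without these blocks, 0 of 62 genes differed by 2-fold and 304 of 15132 named genes did. Of all named genes with a probe detected in these blocks, 6.37% differed by 2-fold and 4.44% were lower by that much. Over the 21 tested member probes in the blocks the median difference was -0.03, against 0.06 over the 83 elsewhere. On the control array, 2 blocks with 18.2% of such spots lower (2 of 11 and 4 of 22 spots) held 9 member probes. The 6 of them that were tested differed by between -0.53 and 0.42, and included Kcnb2, Kcnj12, Kcnk3 and the brightest Kcnma1 probe.

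**Figure D4:**
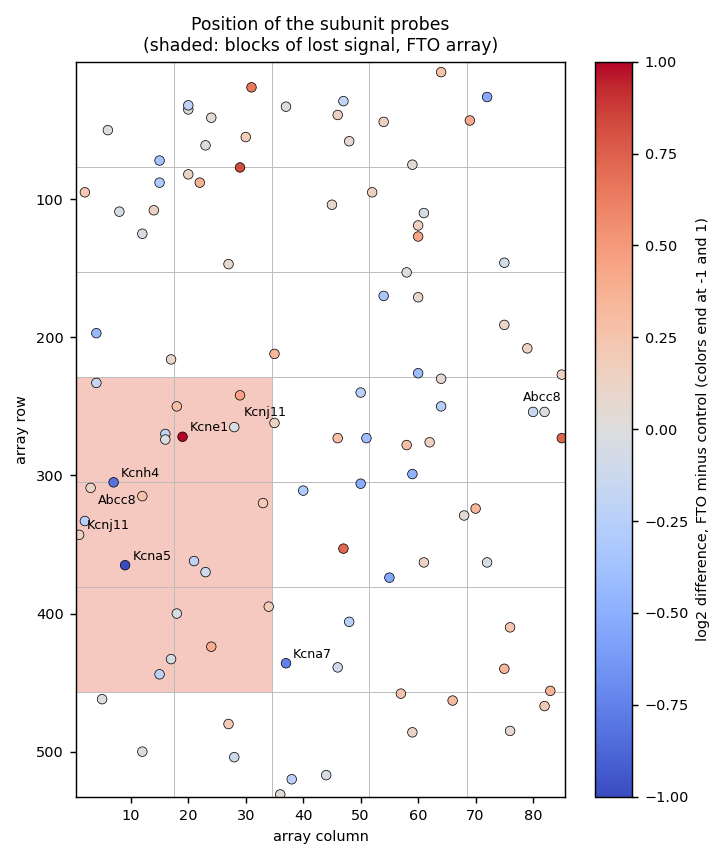
Position (array row and column) of the 101 tested subunit probes printed as a single spot, colored by the log2 difference FTO minus control, with the 6 blocks in which repeated probes lost signal on the FTO array shaded. Kcna5 (-1.87), Kcne1 (2.09) and Kcnh4 (-0.82) lie in the shaded blocks, and Kcna7 (-0.76) lies outside them.

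The genes that act together with potassium channels in beta cell excitability were taken from a list of 34 calcium and sodium channel subunits, transporters, exocytosis proteins and channel partners that are no members. Of these, 33 had a probe and 32 were detected, and 3 had a probe past 2-fold, against the same 3.21% of all named genes detected. Cacna1e, a voltage-gated calcium channel pore, was above background on the FTO array only, with 19.7 (FTO) and 7.60 (control). Trpm2, a calcium-permeable cation channel opened by oxidative stress, gave 23.9 (FTO) and 11.6 (control) and differed by 1.01 ± 0.38 (spot error). The third, Lrrc8a, a subunit of the volume-regulated anion channel, was called by a second probe, and its brightest probe gave 15246 (FTO) and 10400.2 (control) and a difference of 0.11. The median of the list was 0.12, with 25 genes above 0 and 7 below, against a median of 0.01 over all named genes. These are values after quantile normalization. With 75th percentile scaling the median over all named genes was -0.06, and the list was not computed under that scaling. Slc2a2, the glucose transporter of beta cells, differed by 0.45 with a bright spot. The lowest difference among the detected genes of the list was -0.37, for the exocytosis gene Stx1a, with signals of 984 (FTO) and 977 (control).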

How the data were processed

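Total RNA from MIN6 cells was measured on 1 single-color Agilent whole mouse genome array per condition, and groups were taken from the sample labels. The authors deposited spot tables holding the intensity of each spot, background-subtracted and detrended by Feature Extraction 11.0.1.1 (submitters' processing notes), with error estimates and flags. The deposited processed table holds log2 values of 33870 probes, quantile normalized by the authors in GeneSpring according to the methods; the rule by which probes were listed is not given in the sources used here. Its medians were 9.13 on both arrays, and its values differed from those computed here by a mean of 0.00086.

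Control spots and outlier spots (148 FTO, 141 control) were left out, no spot was saturated, log2 values were averaged over the spots of a probe, and quantile normalization was done in limma 3.58.1 (R 4.3.3). Python 3.11.15, pandas 2.3.3, numpy 2.4.6 and matplotlib 3.10.9 were used for the rest. The number of arrays limits the precision. Symbols came from the accessions through the NCBI annotation of GRCm38.p6 (27218 probes named); the array design lists an older build, so no coordinates are given. Probes had to exceed background clearly on either array to be tested (for repeated probes, in at least 50% of spots), and were called past 2-fold. Where 1 array was at background, the bound divides the detected signal by the dim array's own value or by its lowest signal among probes above background in all their spots (14.0 FTO, 10.6 control, after normalization), whichever is larger. Blocks had 76 rows and 17 columns at most, and counted as lost where at least 15% of spots were lower by over 0.5. The steps were tested on simulated data.

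Members with full values were Kcnj11, Abcc8, those past 2-fold, the 3 brightest of each role, subunits known from beta cells, and genes whose probes disagreed; the others are given by counts and ranges, and those past 1.5-fold or with disagreeing pairs were named after their values were seen. A few genes are counted but not reported here. Members and lists were chosen with earlier results of these data known. Alternatives were other normalizations (75th percentile, cyclic loess, the authors' log2 values), normexp background correction (offset 50, on median intensities), other filters, other thresholds and other probe choices.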

Additional observations from a re-analysis of the deposited data

How the results depend on the processing

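The count of 2 subunit genes past 2-fold was also 2 under 75th percentile scaling, cyclic loess, the authors' values and the brightest probe of each gene. It was 1 with normexp, 1 with probes detected on both arrays, 1 with a floor under dim signals, 8 of 94 with no filter on background, 8 at 1.5-fold and 0 of 62 without the blocks of lost signal; the cause was not tested, except that the last leaves out the probes of both genes. Kcna5 differed by -2.04 under 75th percentile scaling, -1.87 under cyclic loess and -1.36 with normexp, and Kcne1 by 0.34 with normexp. The first Abcc8 probe differed by -0.20 under 75th percentile scaling and by -0.09 under cyclic loess, and Kcnj11 by 0.12 to 0.14 under all 4 alternatives run for it. The median of the members ran from -0.10 (75th percentile, where that of all named genes was -0.06) to 0.06. The share of higher genes among all past 2-fold was 40.9% with quantile normalization, 31.6% with cyclic loess and 16.6% with 75th percentile scaling. For 36 named members, 180 alternative values included 168 that moved by less than the spot error and 12 that moved by more, among them Kcna5 with normexp and 2 of Kcne1 that came under 2-fold. The sign changed in 14 values of 9 genes, whose differences were at most 0.21 in size, 6 of them under 75th percentile scaling: Kcnb2 (-0.18), Kcnh1 (0.02), Kcnh2 (-0.03), Kcnj6 (-0.09), Kcnj12 (-0.14) and Kcnn4 (-0.16). The median and the detected genes (62 to 94) moved less than the limits set for them. No paired analysis was possible because each condition has 1 array, and for the same reason no replicate could be left out. Spots near background limit what can be said of the dim subunits.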
